A study of Drosophila melanogaster with 4 samples.

Results

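Wild type Drosophila melanogaster fed paraquat were compared with wild type flies fed sucrose alone, gene by gene and over the whole transcriptome. A gene entered the comparison when it reached 1 RPKM (uniquely mapped reads scaled by gene length and by library total) in either of these libraries. Of 12073 gene IDs listed anywhere in the series, 11705 were listed in a wild type library and 8429 reached that level. The paraquat group was w1118 females given 20 mM paraquat in 5% sucrose for 6 hours, and its control was w1118 females given 5% sucrose for the same 6 hours. A second pair of groups, kdm5 K6801/10424 mutant females with and without paraquat, is used here as a yardstick. The w1118 allele, which removes eye pigment, was carried by all 4 groups. All flies were whole adults 1 to 3 days old, and RNA came from 5 flies extracted together, so values are averages over whole bodies. Each group was 1 library, so no difference below has a replicate check, no p-value is given, and intervals cover counting error only.

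Paraquat is a redox-cycling herbicide: it takes electrons from cellular reductases and the respiratory chain and passes them to oxygen, which yields superoxide. Flies answer such stress through the factor cnc, the fly counterpart of Nrf2, which its inhibitor Keap1 holds back, and through JNK and foxo signalling. Known outputs include glutathione S-transferases, cytochrome P450s, metallothioneins and ferritin. An adult female body is also a large ovary, where nurse cells load the egg with RNA, follicle cells secrete the eggshell and the fat body supplies yolk.

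The wild type libraries held 28.9 M reads with paraquat and 27.9 M in control, and 3 reads in a gene of 1 kb equal 0.104 and 0.107 RPKM. The mutant libraries held 29.1 M and 28.3 M reads. The sex label was met: Yp1, a yolk protein gene of females, stood at 1774 to 4296 RPKM over the 4 libraries, and none of 8 testis and accessory gland genes found in the tables reached 1 RPKM, with a largest value of 0.741 RPKM for Mst87F in the paraquat library. Of those 8 genes, Mst84Dc, Mst98Ca and dj had 0 reads with paraquat, and Acp26Aa, Acp26Ab, Acp53Ea, Mst98Ca and SP had 0 in control. Kdm5, whose mutation defines the other genotype, was at 22.5 RPKM with paraquat and 43.4 in control in wild type, against 2.03 and 2.06 RPKM in the mutant.

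Differences are given as log2(RPKM + 1), paraquat minus control. A gene was called higher or lower when this reached 1 in size, which is a rule of size and not a test. By that rule 439 of 8429 genes (5.21%) were higher with paraquat and 879 (10.4%) were lower, and 7111 were neither. The median difference of all genes was −0.29, with quartiles of −0.70 and 0.35, so 63.2% of genes lay below 0. The higher genes reached further: 85 were higher by at least 2 and 20 by at least 3, against 36 and 14 on the lower side. Most lower genes were close to the threshold, since 775 of 879 (88.2%) lay between 1 and 1.5, against 269 of 439 higher genes (61.3%). Scaling moves this balance. Median-ratio scaling shifted the median of all genes up by 0.33 and gave 983 higher and 268 lower, so 78.6% of called genes were higher rather than 33.3%, and upper-quartile scaling shifted it by 0.45 and gave 1277 and 158 (89.0%). Directions below are on the deposited scale, and lists whose median changes sign under either scaling are named as such.

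**Figure D1:**
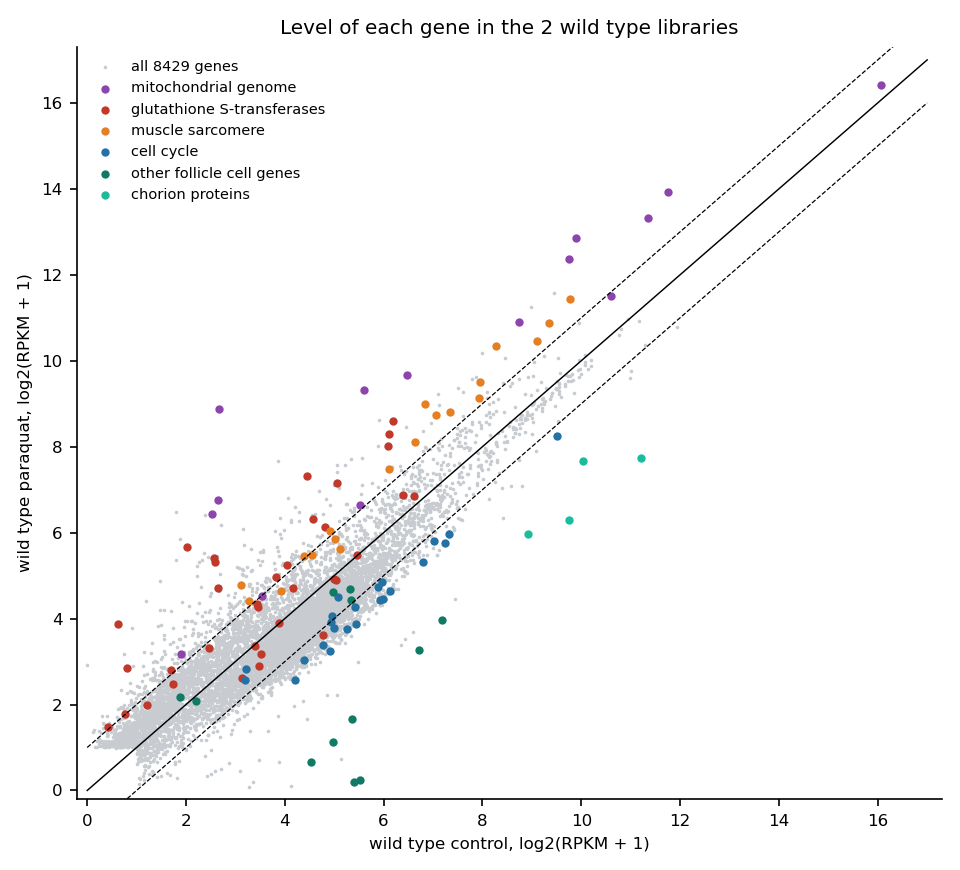
Each of the 8429 genes by its level in wild type paraquat (vertical) and wild type control (horizontal), both as log2(RPKM + 1), with 6 gene lists coloured, the line of equality (solid) and differences of 1 either way (dashed). Of the coloured lists, 12 of 15 transcripts of the mitochondrial genome, 15 of 19 sarcomere genes and 18 of 35 glutathione S-transferases lie above the upper dashed line, most cell cycle genes lie just under the lower one, and chorion and late follicle cell genes lie furthest below it.

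The mutant libraries show which of the wild type libraries stood apart for each gene. With paraquat in the mutant, 59 of 8288 genes were higher (0.712%) and 50 lower (0.603%), fewer than in wild type, and the mutant comparison shares no library with the wild type one. Of the 439 genes higher in wild type, 178 (40.5%) were at least 1 lower in the wild type control than in each of the other 3 libraries, and 64 (14.6%) were at least 1 higher in wild type paraquat than in each of the others. Among the 879 lower genes, 279 (31.7%) had the wild type control at least 1 above all 3 others, and 28 (3.19%) had wild type paraquat at least 1 below all 3. The wild type control was the highest of the 4 libraries for 858 of the 879. Median RPKM of the lower genes was 10.7 with paraquat and 26.0 in control in wild type, and 13.0 and 14.1 in the mutant. Median RPKM of the higher genes was 19.4 and 5.43 in wild type, and 15.3 and 13.7 in the mutant. Where the wild type control is the outlying library, effects of paraquat, of genotype and of that 1 library cannot be told apart. Mutant levels are given below for this reason. Among the 30 genes furthest lower, wild type paraquat was at least 1 below all other libraries in 21, and the wild type control at least 1 above in 11. Among the 30 furthest higher, each of these libraries stood apart by 1 in 17. Both sets were picked by the size of the wild type difference, so these counts partly follow from the choice.

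Glutathione S-transferases, the enzymes that conjugate glutathione to electrophiles, had 18 of 35 measured members higher and 1, GstO1, lower, against 5.21% and 10.4% of all genes. Their median difference was 1.03 and their summed level was 2121 RPKM with paraquat and 771 in control, beside 2512 and 1412 in the mutant. All 10 measured GstD genes were higher, and so were GstE1, GstE3, GstE7, GstE9, GstO3, GstS1, GstT4 and GstZ2. GstD5 stood at 49.6 RPKM with paraquat and 3.08 in control (16.1-fold, 12.3 to 21.5), and at 59.5 and 1.90 in the mutant. GstD2 stood at 158 and 20.8 RPKM in wild type, and at 135 and 7.94 in the mutant. Both genes were high in each paraquat library and low in each control library, as was GstD4, at 13.7 and 0.544 RPKM in wild type and 10.4 and 0.880 in the mutant. GstD1, the most abundant of the class, was at 385 RPKM with paraquat and 72.0 in control (5.34-fold, 5.15 to 5.54), and at 486 and 289 in the mutant. For GstD1 the mutant control was within the range of the other libraries, and the wild type control alone was low. Over the 18 higher members the wild type control was the lowest library for 14, and 9 of 35 members were higher in the mutant.

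The UDP-glycosyltransferases, which attach sugars to foreign or internal compounds to make them soluble, held the furthest higher nuclear genes. Ugt37A3 was at 87.6 RPKM with paraquat and 2.47 in control (35.4-fold, 29.5 to 42.9), and at 23.6 and 6.11 in the mutant. Its neighbour Ugt37A2 was at 84.1 and 4.21 RPKM (20.0-fold, 17.4 to 23.1), and at 12.7 and 10.7 in the mutant. Wild type paraquat was the highest library for both genes. In all, 7 of 26 measured members were higher and 0 lower, with a median of 0.75, and the others were Ugt37D1, Ugt35C1, Ugt37C2, Ugt37B1 and Ugt305A1. Ugt35C1 did not follow Ugt37A3: it was at 14.3 RPKM with paraquat and 3.29 in control, but at 48.8 and 36.7 in the mutant.

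Cytochrome P450s, haem oxidases of foreign compounds, fatty acids and steroids, had 15 of 52 measured members higher, and 2, Cyp6a19 and Cyp6a22, lower (median 0.53). Cyp9b2 was at 203 RPKM with paraquat and 13.6 in control (14.9-fold, 13.8 to 16.1), and at 104 and 59.1 in the mutant. Cyp6d4 was at 45.1 and 4.12 RPKM, and at 16.8 and 10.5 in the mutant. Cyp28a5 was at 66.6 and 7.89 RPKM, and at 29.3 and 16.3 in the mutant. For these 3 genes wild type paraquat was the highest and wild type control the lowest of the 4 libraries. Cyp309a1 (17.2 and 2.23 RPKM, beside 22.8 and 18.2 in the mutant) and Cyp4e3 (61.8 and 13.9 RPKM, beside 181 and 87.4) were low in the wild type control alone. The control was the lowest library for 14 of the 15 higher P450s, and the list median turned to −0.11 when wild type paraquat was set against the mutant control instead.

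Among 9 measured ABC transporters, 3 were higher and none lower (median 0.64): Mdr50, Mdr49 and Mrp4, which belong to the families that pump drugs and conjugates out of cells. Mdr50 was at 17.5 RPKM with paraquat and 1.77 in control (9.91-fold, 8.76 to 11.3), and at 1.96 and 2.04 in the mutant, so that wild type paraquat alone was high. Mdr49 was at 13.0 and 2.90 RPKM, and at 20.4 and 10.4 in the mutant. Of 11 carboxylesterases, which split ester bonds, only alpha-Est7 was called, at 13.6 RPKM with paraquat and 6.00 in control, with 17.2 and 22.9 in the mutant.

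The regulators above these enzymes were near level in RNA. The factor cnc was at 12.7 RPKM with paraquat and 11.8 in control, Keap1 at 3.86 and 3.92, and maf-S, the DNA-binding partner of cnc, at 42 and 51.6. ref(2)P, an autophagy adaptor known as a cnc target, was called higher at 249.6 RPKM with paraquat and 114 in control (2.18-fold, 2.13 to 2.23), with 157 and 101 in the mutant. None of 11 genes that supply glutathione or NADPH was called, with Gclc, the catalytic subunit of glutathione synthesis, at 14.6 and 8.86 RPKM. Among 13 enzymes that remove superoxide and peroxides, 1 was higher and 1 lower, near the 5.21% and 10.4% of all genes. The higher one was the peroxiredoxin Prx6b, at 8.45 RPKM with paraquat and 3.32 in control. Sod3, the extracellular superoxide dismutase, was the lower one, at 31.4 and 69.1 RPKM, with 30.8 and 38.8 in the mutant. Catalase (Cat) just missed the threshold at 124 and 64.1 RPKM, a difference of 0.94, with 116.8 and 113 in the mutant.

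Among metal-binding genes, the metallothioneins and the secreted ferritin were higher. All 5 metallothioneins, small cysteine-rich proteins that bind copper, zinc and cadmium ions, were called higher (median 2.39), and their summed level was 1480 RPKM with paraquat and 431 in control, beside 1082 and 518 in the mutant. MtnA, the most abundant, was at 1067 RPKM with paraquat and 349.6 in control (3.05-fold, 2.98 to 3.12), and at 476 and 242 in the mutant. MtnB was at 95.2 and 17.4 RPKM, and at 27.2 and 10.6 in the mutant. These 2 were high with paraquat in both genotypes, with wild type above the mutant. MtnD (28.4 and 1.79 RPKM) and MtnE (31.0 and 3.70 RPKM) were higher still in the mutant, at 94.4 and 29.6 for MtnD and 151 and 71.8 for MtnE. Of 14 other genes of metal handling, 7 lay above 0 and 7 below, with a median of 0.015. Of these 14, 2 were called, both higher, and they were the neighbouring genes of the secreted ferritin. Fer1HCH was at 790.3 RPKM with paraquat and 234 in control (3.38-fold, 3.32 to 3.44), and at 648 and 284 in the mutant. Fer2LCH was at 758 and 219 RPKM (3.47-fold, 3.41 to 3.53), and at 659 and 266 in the mutant. For the ferritin pair both paraquat libraries lay above both control libraries, with close levels within each pair of libraries.

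Chaperones did not move as 1 class. Of 7 small heat shock genes, Hsp23 was higher, at 45.8 RPKM with paraquat and 10.8 in control, with 59.5 and 46.3 in the mutant. Hsp26 and Hsp27, which nurse cells also supply to the egg, were lower: Hsp27 was at 134 RPKM with paraquat and 447 in control (3.33-fold lower, 3.22 to 3.44), with 163 and 157 in the mutant. The wild type control was therefore the outlying library for Hsp23 on the low side and for Hsp27 on the high side. Among 10 measured genes of the Hsp70 and Hsp90 systems, the cochaperone stv and Hsc70-1 were higher and the heat shock factor gene Hsf was lower, at 16.6 and 36.4 RPKM. The median of these 10 was −0.42 and turns positive under upper-quartile scaling. Hsp68, an inducible Hsp70, was at 10.9 and 5.04 RPKM in wild type and at 18.1 and 6.49 in the mutant. None of 16 endoplasmic reticulum stress genes and none of 17 autophagy genes was called, with medians of −0.43 and −0.38 that turn positive under upper-quartile scaling. Of 32 proteasome subunits 1 was called, the subunit paralogue Rpt6R, at 1.66 and 0.0954 RPKM, and the median of −0.30 turns positive under both other scalings.

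Stress and death genes gave 3 higher and 2 lower of 17, against 5.21% and 10.4% of all genes, so the lower count is near its share. Gadd45, a small protein that activates stress kinases upstream of JNK and p38, was at 32.0 RPKM with paraquat and 7.78 in control (4.12-fold, 3.64 to 4.66), and at 25.4 and 5.53 in the mutant. Xrp1, a stress transcription factor, was at 99.3 and 29.1 RPKM, and at 84.0 and 53.7 in the mutant. The death inducer rpr was at 6.91 and 1.67 RPKM, and at 1.18 and 1.57 in the mutant. Gadd45 thus separated paraquat from control in both genotypes, and rpr was high in wild type paraquat alone. Irbp, a Ku subunit of double-strand break repair, was lower, at 11.7 RPKM with paraquat and 29.3 in control, with 16.1 and 13.9 in the mutant. Among 13 genes of insulin and foxo signalling 2 were higher and 2 lower, against 5.21% and 10.4% of all genes. The gluconeogenic genes Pepck1 (349 and 86.9 RPKM) and Pepck2 (6.95 and 2.86 RPKM) were higher. Ilp8, a relaxin-like peptide whose gene overlaps others, was at 2.91 RPKM with paraquat and 17.1 in control (5.88-fold lower, 5.04 to 6.90), with 3.59 and 3.18 in the mutant. srl, the fly PGC-1, was also lower, at 35.3 and 74.5 RPKM. None of 8 hormone response genes was called, with a median of −0.05 that turns positive under both other scalings. Of 12 clock genes cyc alone was called, and lower, at 14.9 and 33.3 RPKM, with 9.13 and 11.7 in the mutant.

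No gene of the immune effector and recognition lists was higher, against 5.21% of all genes. In lists this short, a count of 0 is near that share. None of 9 Bomanins, short peptides of the Toll response, was called (median 0.16). None of 6 Turandot and JAK-STAT genes was called either, with a median of −0.18 that turns positive under both other scalings. Among 12 antimicrobial peptides 0 were higher and 2 were lower, against 10.4% of all genes, and these were the neighbours DptA and DptB. DptA was at 1.6 RPKM with paraquat and 8.87 in control (5.53-fold lower, 3.52 to 9.05), and at 18.9 and 49.0 in the mutant. DptB was at 2.12 and 7.23 RPKM, and at 3.20 and 7.35 in the mutant. PGRP-SB1, a peptidoglycan-binding protein, was at 6.46 and 19.1 RPKM, and at 3.88 and 14.1 in the mutant. For these 3 genes the paraquat library was below its own control in each genotype.

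Transcripts of the mitochondrial genome were the furthest higher of all lists after the metallothioneins. They are made as long precursors that are cut into messenger, transfer and ribosomal RNAs, and 12 of 15 measured were called higher, with the others above 0 as well (median 2.17). mt:ND3 was at 469 RPKM with paraquat and 5.36 in control, from 4796 and 53 reads (87.5-fold, 66.7 to 116.9), and at 133 and 18.9 RPKM in the mutant. mt:ND2 was at 107 and 5.30 RPKM (20.2-fold, 17.2 to 24.0), and at 11.4 and 6.34 in the mutant. mt:ND5 was at 640.4 and 47.5 RPKM (13.5-fold, 12.9 to 14.1), and at 125 and 98.2 in the mutant. Wild type paraquat was the highest of the 4 libraries for all 12 called transcripts, and for 7 of them it was at least 1 above each other library.

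Among the abundant messengers, mt:CoIII was at 15539 RPKM with paraquat and 3447 in control (4.51-fold), mt:CoI at 10209.5 and 2604 (3.92-fold), mt:Cyt-b at 5297 and 856 (6.19-fold) and mt:ATPase6 at 7469 and 956 (7.81-fold). mt:CoII, between mt:CoI and mt:ATPase8 on the map, was at 2906 and 1558 RPKM (1.86-fold, 1.84 to 1.89), a difference of 0.90. Some scarce messengers also differed by under 3-fold: mt:ATPase8 was at 22 and 10.6 RPKM (2.07-fold, 1.46 to 2.99), mt:ND4L at 98.5 and 45.0 RPKM (2.19-fold) and mt:ND6 at 8.04 and 2.73 RPKM (2.95-fold). The ribosomal RNAs came apart: mt:lrRNA was at 87148 and 68847 RPKM (1.27-fold), while mt:srRNA was at 85.1 and 4.74 RPKM (18-fold, 14.7 to 22.1). Libraries were made from poly-A RNA, so a level here is that of RNA captured by its poly-A tail. All mitochondrial transcripts together took 16.1% of reads with paraquat and 10.1% in control, and 15.5% and 12.5% in the mutant.

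**Figure D2:**
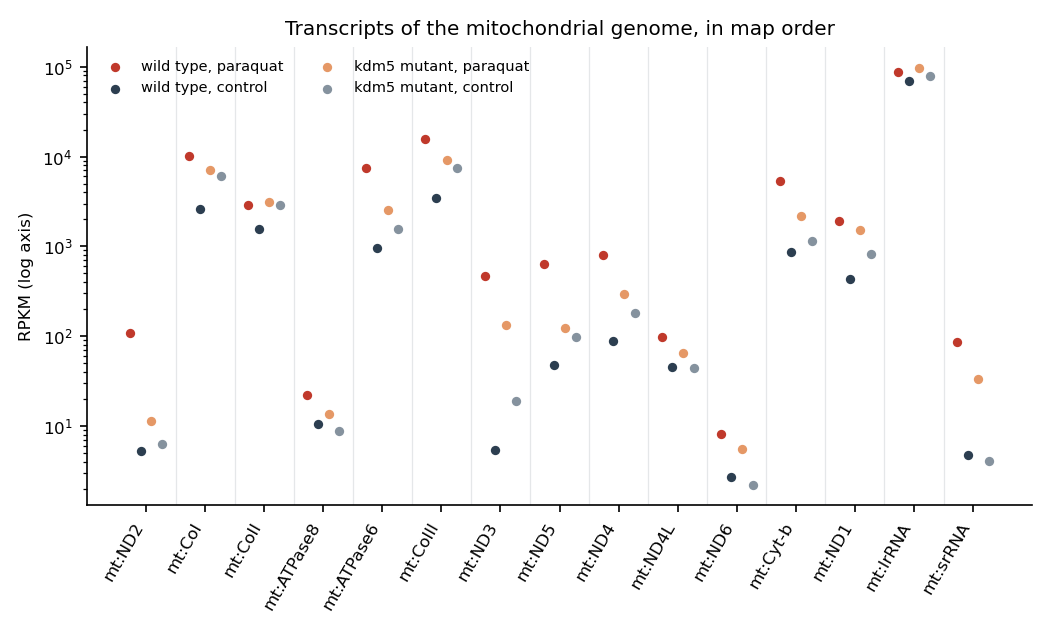
RPKM on a log axis of the 15 measured transcripts of the mitochondrial genome in map order, 1 point for each library. Wild type paraquat is far above wild type control for mt:ND3 (469 and 5.36 RPKM) and mt:ND2 (107 and 5.30 RPKM), and the libraries nearly coincide for mt:lrRNA.

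Nuclear genes of the respiratory chain did not reach the threshold but shared a direction. All 33 measured subunits of complex I lay above 0 (range 0.31 to 0.78), as did all 34 of complexes II to V (0.33 to 0.94). Their medians were 0.55 and 0.74, against −0.29 for all genes. Median-ratio scaling called 10 of the 33 and 23 of the 34 higher, and upper-quartile scaling 22 and 30. Summed levels of complexes II to V were 12251 RPKM with paraquat and 7234 in control, beside 12073 and 12916 in the mutant, so the wild type control was the low library, for 33 of 34 subunits. Of 14 citrate cycle genes, 12 lay above 0 and kdn, the citrate synthase gene, was called higher at 185 and 79.2 RPKM, with 178 and 182 in the mutant. Mitochondrial ribosomal proteins did not share this direction. Of 69, 65 lay below 0, as did 63.2% of all genes, and none was called. Their median of −0.46 was 0.16 below that of all genes. It comes to −0.12 under median-ratio and 0.01 under upper-quartile scaling.

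Among 17 genes of glycolysis and sugar metabolism all lay above 0, and 3 were called. The wild type control was the lowest library for all 17. Summed levels were 3441 RPKM with paraquat and 2549 in control, beside 4109 and 4400 in the mutant. Ldh, lactate dehydrogenase, was at 42.4 RPKM with paraquat and 4.41 in control (9.61-fold, 8.70 to 10.6), and at 24.5 and 9.96 in the mutant, so both paraquat libraries were above both controls. Gpdh1, glycerol-3-phosphate dehydrogenase, was at 254 and 113 RPKM, and at 208 and 215 in the mutant. Ald1, aldolase, was at 246 and 122 RPKM, and at 281 and 273 in the mutant. Only Ldh of the 3 passed the size rule in the mutant. In 22 genes of lipid metabolism, Lsd-1, a lipid droplet coat protein, was higher at 41.3 and 18.8 RPKM, with 28.8 and 16.6 in the mutant. Npc1b, a gut sterol transporter, was higher at 4.01 and 1.30 RPKM, with 1.29 in each mutant library.

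Protein synthesis genes showed no calls. None of 79 cytosolic ribosomal proteins, 33 initiation factors and 31 aminoacyl-tRNA synthetases was called, with medians of −0.20, −0.36 and −0.59. The median of the ribosomal proteins turns positive under both other scalings and that of the initiation factors under upper-quartile scaling, where that of the synthetases stays below 0 at −0.14.

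Of 11 maltase and amylase genes 8 were called higher, and in all 8 the wild type control was at least 1 below each other library. tobi, a glucosidase regulated by diet, was at 36.6 RPKM with paraquat and 3.69 in control (9.90-fold, 8.63 to 11.4), but at 231 and 277 in the mutant. Mal-A1 was at 327 and 109 RPKM, and at 508 and 502 in the mutant. Summed levels of the list were 931 RPKM with paraquat and 344 in control, beside 1649.9 and 1769 in the mutant. All 6 larval serum and fat body protein genes, known as products of the larval fat body, were higher. Fbp1 was at 17.5 and 1.93 RPKM (9.06-fold, 7.79 to 10.6), and at 23.1 and 48.3 in the mutant. Of 28 gut serine proteases 4 were higher and 1 lower, against 5.21% and 10.4% of all genes. The control stood apart by 1 for 2 of the 4. Jon25Bii was at 191 and 32.5 RPKM, and at 35.4 and 85.9 in the mutant, so wild type paraquat was the high library. Jon65Ai, the lower one, was at 20.0 and 45.6 RPKM, and at 37.9 and 35.2 in the mutant.

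Markers of tissues outside the ovary differed by list. Contractile protein genes had 15 of 19 members higher and none lower (median 1.38), with the wild type control the lowest library for all 19. Their summed level was 10814 RPKM with paraquat and 3606 in control, beside 7448 and 8019 in the mutant, and they took 4.78% and 1.72% of wild type reads. Mhc, the muscle myosin heavy chain, was at 425 RPKM with paraquat and 132 in control (3.21-fold, 3.18 to 3.24), and at 328 and 355 in the mutant. Act88F, the flight muscle actin, was at 1308 and 307 RPKM, and at 1101 and 1452 in the mutant. The mutant libraries differed little from each other for this list, and both lay between the wild type libraries in sum.

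Cuticle proteins of the Cpr family, which bind chitin in the body wall, had 11 of 23 members higher and none lower, with summed levels of 1386 RPKM with paraquat and 380.2 in control, beside 831 and 896 in the mutant. The adult cuticle protein gene Acp1 (124 and 24.9 RPKM) was higher together with its neighbours on 2L, CG7214 (1161 and 255 RPKM) and CG7203 (2442 and 506 RPKM). Odorant-binding proteins, small carriers of the antennae and body surface, had 7 of 24 higher and 1 lower, with summed levels of 649 and 404 RPKM, beside 533.9 and 625 in the mutant. Neuronal genes had 1 of 10 called higher, Gad1 at 8.06 and 3.20 RPKM, with a median of 0.75 and sums of 112 and 77.7 RPKM, beside 76.9 in each mutant library. The photoreceptor list had 1 of 14 called higher, close to the 5.21% of all genes. This was ninaD, a carotenoid receptor gene rather than a marker of photoreceptor cells. It was at 6.39 and 0.903 RPKM, with 5.22 and 7.90 in the mutant. The other 13 were not called. The list median was 0.49. Blood cell markers were low throughout, and NimC1 (4.31 and 1.06 RPKM, beside 4.95 and 4.72 in the mutant) and Sr-CI (3.36 and 1.13 RPKM, beside 6.71 and 5.76) were the 2 of 4 called higher. In whole flies a change in the number or size of a tissue's cells and a change in RNA per cell cannot be told apart, and the part that tissue composition plays in the groups above was not tested.

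Many egg production genes were lower with paraquat, and their levels in the mutant libraries differed by kind. The first kind is late follicle cell genes. Of 12 measured members outside the chorion and vitelline membrane lists, 7 were lower and none higher (median −3.34), and for all 7 wild type paraquat was at least 1 below each other library. yellow-g2, needed for a hardened eggshell, was at 0.186 RPKM with paraquat and 45.2 in control, from 8 and 1879 reads (243-fold lower, 123.1 to 564), and at 28 and 92.7 RPKM in the mutant. CG13114 was at 0.150 and 41.1 RPKM (274-fold lower, 133 to 683), and at 38.7 and 75 in the mutant. yellow-g was at 0.575 and 22.3 RPKM, and at 16.6 and 40.2 in the mutant. Of the 4 libraries, wild type paraquat alone was close to empty of these 3 transcripts.

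Several genes with no assigned list showed the same. CG15570 was at 0.0737 RPKM with paraquat and 16.4 in control, from 11 and 2368 reads (223-fold lower, 124 to 447), and at 11.9 RPKM in both mutant libraries. Its neighbour CG15571 was at 0.663 and 34.0 RPKM, and at 24.3 and 24.9 in the mutant. CG1077 had 5 reads with paraquat and 687 in control (142-fold lower, 60.6 to 439), with 2.08 and 2.89 RPKM in the mutant. CG13113, next to CG13114, had 3 and 182 reads (62.8-fold lower, 21.1 to 307), with 11.9 and 10.3 RPKM in the mutant.

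Chorion genes are the second kind. All 4 measured members, which code for the outer eggshell and are amplified in follicle cells, were lower (median −3.21). Cp15 was at 212 RPKM with paraquat and 2362 in control (11.1-fold lower, 10.7 to 11.5), and at 228 and 540.2 in the mutant. Cp19 was at 78.1 and 865 RPKM, and at 254 and 513 in the mutant. Here the wild type control was the highest library for all 4 genes and wild type paraquat the lowest for 3, Cp18 being lower still in the mutant. Their summed share of reads was 0.0389% with paraquat and 0.320% in control. The vitelline membrane genes, made earlier by the same cells for the inner eggshell, were nearly level: their median was −0.34, which turns positive under both other scalings, and 1 of 6 was lower, Vm26Ac at 2.43 and 8.39 RPKM. By contrast, Vm26Ab was at 661 and 717 RPKM and Vm34Ca at 946 and 1173.

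The third kind comprises yolk. Yp1, a yolk protein secreted by fat body and follicle cells, was at 1774 RPKM with paraquat and 3895 in control (2.20-fold lower, 2.18 to 2.21), and at 2626 and 4296 in the mutant. Yp3 was at 868 and 2069 RPKM, and at 1395 and 2423 in the mutant. fit, a female fat body gene that responds to feeding, was at 3.65 and 27.8 RPKM (7.61-fold lower, 5.75 to 10.3), and at 10 and 41.9 in the mutant. For these genes each paraquat library was below its own control. The same held for yellow-g2, CG13114, yellow-g, Cp15 and Cp19 above, so it is not particular to yolk. In the mutant, 3 of 12 late follicle cell genes, 2 of 4 chorion genes and 1 of 5 genes of the yolk list were called lower. The fit gene overlaps other annotated genes, so part of its reads may belong to them.

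Germline and cell division genes were a further kind. Of 23 cell cycle genes 19 were lower and none higher (median −1.35), and the wild type control was the highest of the 4 libraries for all 23. Their summed level was 779 RPKM with paraquat and 1935 in control, beside 927 and 994 in the mutant. CycB, the B-type cyclin stored in eggs, was at 302 and 723 RPKM, and at 369.9 and 394 in the mutant. The kinase aurB was at 8.50 and 29.4 RPKM (3.45-fold lower, 3.05 to 3.93), and at 8.69 and 10.2 in the mutant. Median-ratio scaling left 12 of the 23 lower, and upper-quartile scaling 9. None of the 23 was lower when wild type paraquat was set against the mutant control.

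Of 19 DNA replication genes, 17 were lower (median −1.36), and 12 and 5 under median-ratio and upper-quartile scaling, with the control highest for 18. Mcm5, of the replicative helicase, was at 24.7 RPKM with paraquat and 73.8 in control, and at 31.3 and 35.0 in the mutant. Orc2, of the origin recognition complex, was at 9.94 and 31.5 RPKM, and at 8.41 and 9.71 in the mutant. Among 19 female germline genes 11 were lower, and 7 and 3 under those scalings. bam was at 5.58 and 16.3 RPKM, and at 6.18 and 6.04 in the mutant. bcd was at 10.1 and 29.2 RPKM, and at 10.8 and 11.7 in the mutant. The control was the highest library for all 11 and stood apart by 1 for 4. Of 21 piRNA pathway genes, which silence transposons, 8 were lower, and 1 under either other scaling. krimp was at 18.5 and 53.6 RPKM, and at 28.4 and 31.1 in the mutant, and spn-E at 10.1 and 24.5 RPKM, and at 14.4 and 16.5 in the mutant. The control was the highest library for all 8, by less than 1 over at least 1 other. The germline genes osk, grk, piwi and aub were not called. dhd, an ovarian thioredoxin, was at 775 and 2014 RPKM in wild type but at 110.4 and 114 in the mutant, so both mutant libraries stood apart. All 10 measured histone demethylases lay below 0 and 2 were called lower, against 10.4% of all genes, and none of the 10 under either other scaling. Kdm4A was at 14 and 33.5 RPKM, and at 16.5 and 16.9 in the mutant, and Su(var)3-3 at 9.62 and 23.6 RPKM, and at 9.56 and 10.8 in the mutant. Kdm5 itself missed the threshold at −0.92.

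**Figure D3:**
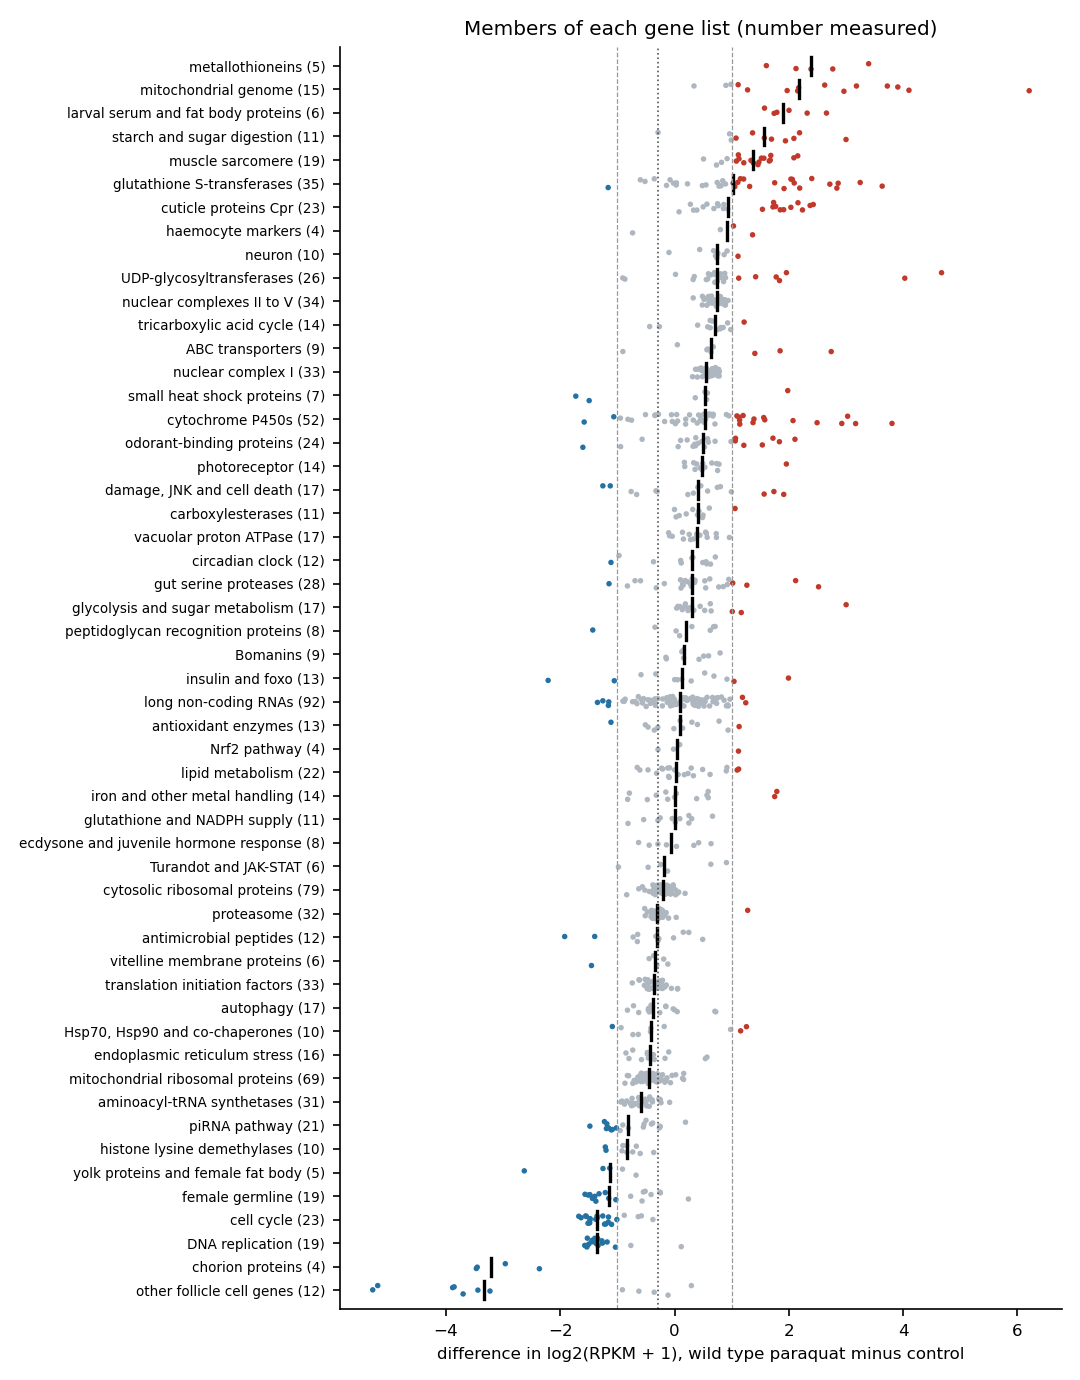
Differences in log2(RPKM + 1), wild type paraquat minus control, of every measured member of the lists with at least 4 such members, ordered by list median (black tick), with points past 1 in red, past −1 in blue and the median of all genes (−0.29) dotted. Metallothioneins (median 2.39) stand at the top, late follicle cell genes (−3.34) at the bottom, and respiratory chain subunits form narrow groups above 0.

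**Figure D4:**
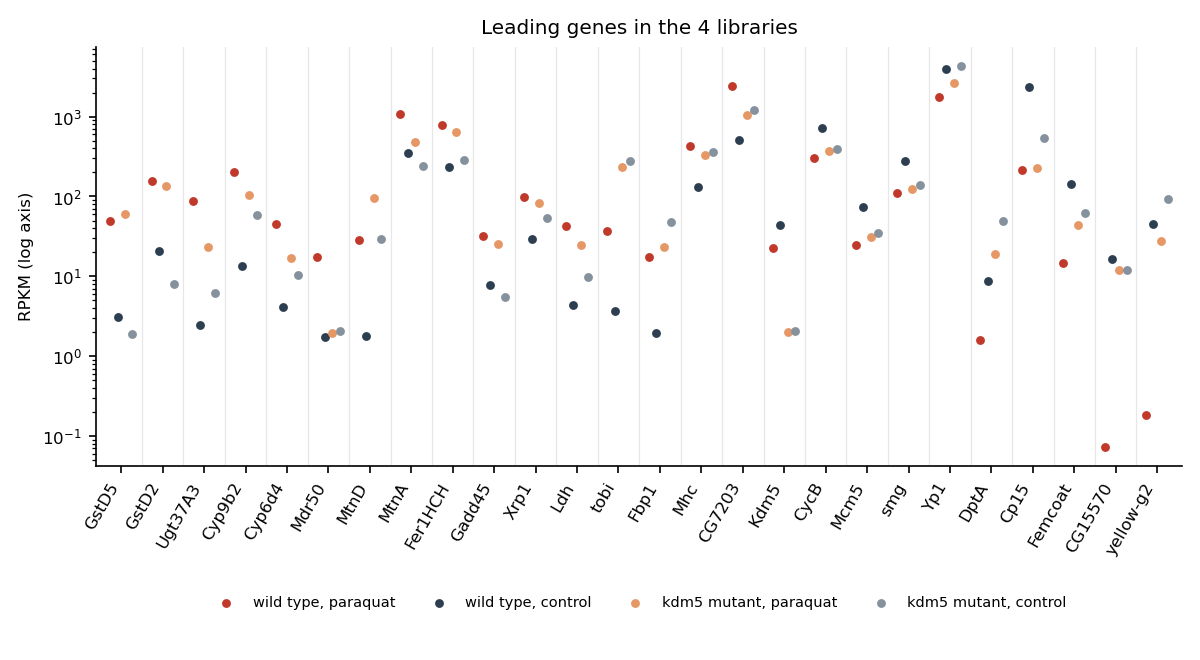
RPKM on a log axis of 26 genes named in the text, 1 point for each of the 4 libraries. GstD5, Fer1HCH, Gadd45 and Ldh were higher in each paraquat library than in either control. Wild type control alone was low for Mhc and high for CycB and Mcm5, and wild type paraquat alone was low for CG15570 and yellow-g2. For tobi both wild type libraries lay below both mutant libraries, with the wild type control lowest.

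Counted in RPM (reads scaled by library total alone), the largest gains and losses followed the same division. Beside mitochondrial transcripts, the most reads were gained by Mhc, at 9359 RPM with paraquat and 2916 in control, and by Mlc2, at 8694 and 2702. ATPsynC, SERCA, the actins Act79B, Act88F and Act57B, the troponin gene up, CG7203 and the neuropeptide-like gene Nplp3 made up the rest of the 15. Yp1 lost the most, at 2922 RPM with paraquat and 6415 in control, ahead of Yp2 and Yp3. CycB, at 1046 and 2504 RPM, and Hsp83, at 1571 and 3009, came next among named genes. The maternal RNA regulators smg, tral, me31B and BicC, with dhd, CNBP, Cp15 and Cp18, were also among the 15 that lost most, with a pair of IDs that had no symbol in the reference table.

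Genes called the same way lay next to each other more often than the share over all genes. Of 417 higher genes placed on the map, 144 (34.5%) had an adjacent measured gene that was also higher, against 9.57% of all 8130 placed genes. Of 853 lower genes, 234 (27.4%) had a lower neighbour, against 20.0%. Leaving out overlapping gene pairs, an alternative added after seeing the data, gave 33.6% against 8.93% and 24.3% against 16.8%. Runs of at least 3 adjacent genes numbered 18 among higher genes and 21 among lower genes.

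The longest run was CG4115 with the 10 GstD genes on 3R, all higher by 1.06 to 3.63. On 2R the maltase genes formed 2 runs, Mal-A1 to Mal-A4 and Mal-A6 to Mal-A8, while Mal-A5 between them was at 43.5 RPKM with paraquat and 53.4 in control. On the X a run of 6 genes was lower by 2.08 to 4.4: CG15571, CG15570, the eggshell genes Femcoat and Muc4B, CG43134 and CG43135. Femcoat was at 14.5 RPKM with paraquat and 145 in control (9.96-fold lower, 8.94 to 11.1), and at 44.0 and 62.6 in the mutant. A second X run held CG32642, the mucin-related Mur11Da, CG15721 and CG12716, with CG32642 at 10.5 and 85.3 RPKM. The 4 chorion genes Cp18, Cp15, Cp19 and Cp16 made up a run on 3L. The GstD, maltase and chorion runs are families of related copies, so their genes are not independent of each other.

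**Figure D5:**
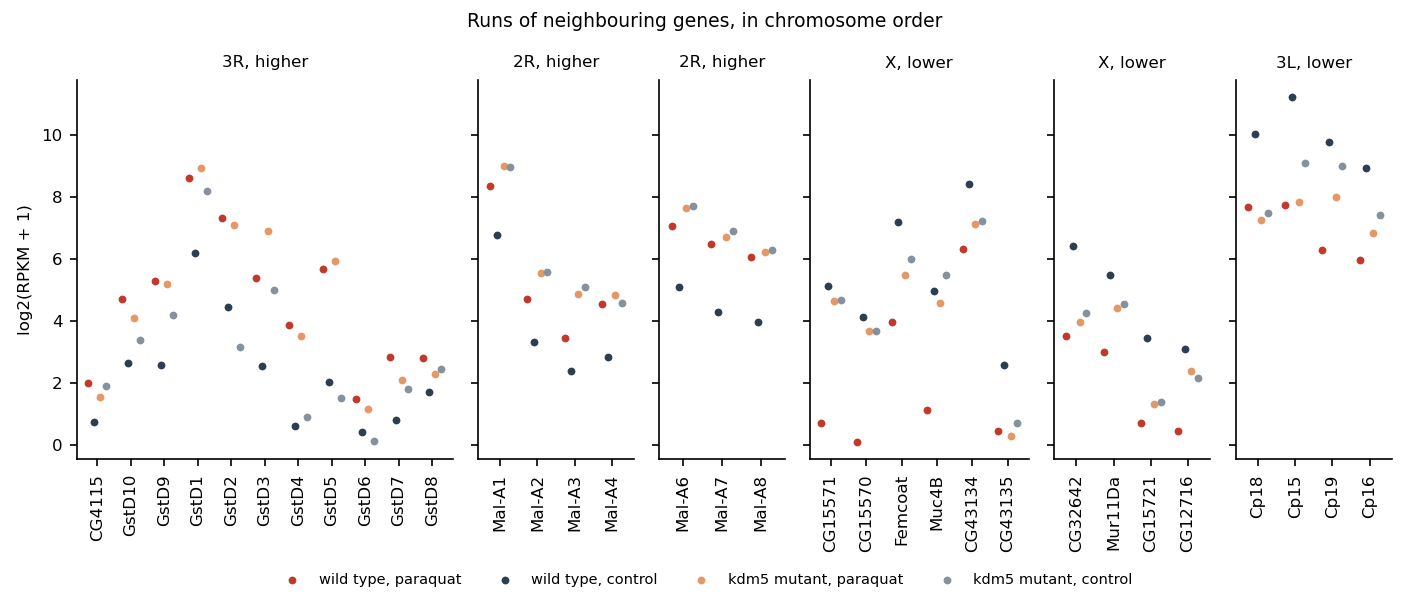
Levels as log2(RPKM + 1) of neighbouring genes in chromosome order for 6 runs, 1 point for each of the 4 libraries. Wild type paraquat is above wild type control at every GstD and maltase gene shown and below it at every gene of the X and 3L runs, and at CG15570 and CG15571 it is also far below both mutant libraries.

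The shares of genes called differed between bins of level and length, and for some chromosomes. Of 449 genes with a mean above 100 RPKM over the 4 libraries, 12.5% were higher and 4.90% lower. Between 20 and 100 RPKM 5.58% were higher and 13.4% lower, and among 3585 genes between 5 and 20 RPKM 4.32% and 13.8%. Below 5 RPKM more genes were higher than lower, with 6.24% and 3.55% between 2 and 5 RPKM and 2.95% and 1.58% under 2 RPKM. Genes of 2 to 5 kb were lower in 14.8% of cases and those over 20 kb in 1.38%. Genes over 20 kb had median levels of 3.38 RPKM with paraquat and 3.05 in control, where log2(RPKM + 1) shrinks differences. Genes without introns were called more often both ways, with 8.10% higher and 15% lower of 840, against 4.94% and 9.95% of 7309 with introns. Of 72 genes on chromosome 4, 9 were higher (12.5%) and 0 lower, against 5.21% and 10.4% of all genes. Among 1317 genes on the X, 2.81% were higher and 11.3% lower, the second being near the share of all genes. The arms 2L, 2R, 3L and 3R gave 5.15% to 6.22% higher and 10.1% to 10.7% lower. Long non-coding RNAs had 2 of 92 higher and 4 lower, against the same 5.21% and 10.4%.

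Other genes far on the higher side have no family list. CG11893 was at 57.2 RPKM with paraquat and 2.66 in control (21.5-fold, 17.7 to 26.2), and at 42 and 21.4 in the mutant. CG16898 was at 71.7 and 5.57 RPKM (12.9-fold, 11.2 to 14.9), and at 95.3 and 22 in the mutant. CG15263 had 176 reads with paraquat and 0 in control, and was at 1.5 and 0.654 RPKM in the mutant. Its wild type fold is 56.7 if the control is set to a floor of 3 reads, and its exact 95% interval starts at 45.6. All 3 were higher with paraquat in both genotypes, although CG11893 and CG15263 did not pass the size rule in the mutant.

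At the thresholds, fng was just inside the RPKM minimum at 1.00 RPKM with paraquat and 0.500 in control, and Pdzd8 was just outside. CG13510, at 95.6 and 47.2 RPKM, was the last gene called higher, and LUBEL, at 10.7 and 4.83, the first not called. CG17612, at 6.82 and 14.6 RPKM, was the last called lower, and the next gene, at 5.82 and 12.6 RPKM, was not called. Across genotypes, 37 genes were higher with paraquat in both wild type and mutant. They were 8.43% of the wild type calls, beside 0.712% of all genes higher in the mutant. They were also 62.7% of the mutant calls, beside 5.21% of all genes higher in wild type. Another 13 were lower in both, 1.48% of the wild type calls beside 0.603%, and 26.0% of the mutant calls beside 10.4%.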

How the data were processed

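Poly-A RNA of whole adult females was sequenced in 4 libraries after TruSeq preparation, per the labels' protocols. Cufflinks and dm3 appear in the submitters' processing notes. Which aligner, gene annotation and strand setting were used is not given in the sources used here. Per gene ID, a deposited table gives a read count, a length, a coverage and an RPKM, per the file headers. The deposited counts are whole numbers of uniquely mapped reads that sum to the total in the header. The deposited RPKM equals reads over length and that total, within a relative gap of 5.13e-07, and its length spans introns (within 5% of the gene span for 92.3% of 7362 intron-bearing genes), which understates long genes. The deposited coverage is the percent of that length covered, and was not analysed. An ID absent from a table was taken as 0 reads.

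Differences of log2(RPKM + 1) were computed with pandas 2.3.3 and NumPy 2.4.6, which understates change near 1 RPKM. Folds are ratios of RPKM with exact Clopper-Pearson 95% intervals (SciPy 1.17.1). With 1 library in each group a count test has no replicates and was not run. Gene order comes from BDGP6 (Ensembl annotation release 115), a later build, so no coordinates are given, and 198 of 511 placed named genes overlap another gene, whose reads may be shared. Copies of gene families lose reads to unique mapping.

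The gene lists and rules were chosen with earlier results of these data known. Named genes are the 30 furthest on each side with 5 RPKM in a wild type library, the 15 that gained or lost most reads, up to 6 members of each list (all of lists of up to 12), genes at thresholds, mitochondrial transcripts, runs of 3 or more neighbours and Kdm5. Other members named as called or not called, and CG8736, were chosen after their values were seen. After values were seen, Cp110 and Cp190, fs(1)K10 and CG14309 were taken off lists, since they belong to other gene classes. Alternatives were pseudocounts of 0.1 and 5, other RPKM minimums, median-ratio and upper-quartile scaling over genes with a mean of 1 RPKM, totals without mt:lrRNA, no division by length and the mutant control as baseline. The values of 1 gene counted among the stress and death genes are not reported here.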

Additional observations from a re-analysis of the deposited data

Results flagged for a closer look

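For 7 genes, wild type and kdm5 mutant flies differed in direction, each by at least 1, with no test of the difference possible at 1 library in each group. Each was called higher with paraquat in wild type while being called lower in mutants. They were 7 of 439 genes higher in wild type, beside 0.603% of all genes lower in the mutant. In wild type paraquat Fbp1 (17.5 RPKM), Lsp1alpha (7.36 RPKM) and Jon25Bi (137 RPKM) stayed below the mutant control, at 48.3, 14.7 and 151 RPKM. CG13065, CG5172, CG8736 and Jon25Bii were above it. The larval fat body genes Fbp1 and Lsp1alpha differed by 2.66 and 1.57 in wild type, against −1.03 and −1.0 in the mutant. The gut protease genes Jon25Bi and Jon25Bii differed by 2.12 and 2.52 in wild type, against −1.04 and −1.26 in the mutant. CG5172 differed by 2.42 in wild type and −1.16 in the mutant, CG8736 by 2.73 and −1.0, and CG13065 by 3.20 and −2.16. No gene was lower in wild type and higher in the mutant, a count of 0 under the same rule, beside 0.712% of all genes higher in the mutant.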

How the results depend on the processing

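No paired analysis was possible because each group holds 1 library. The count of genes called higher, 439 as reported, came to 755 with a pseudocount of 0.1, 226 with 5, 983 under median-ratio scaling, 1277 under upper-quartile scaling, 690 with RPM, reads not divided by length, and 274 with the mutant control as baseline. The count called lower, 879 as reported, came to 363 with a pseudocount of 5, 268 and 158 under median-ratio and upper-quartile scaling and 265 with the mutant control as baseline. The median difference, −0.29 as reported, came to −0.037 with no RPKM minimum, −0.45 with a minimum of 5 RPKM and −0.12 with the mutant control as baseline, and changed sign to 0.038 under median-ratio and 0.16 under upper-quartile scaling.

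With the mutant control as baseline, wild type paraquat was lower for 39 named genes called higher above: tobi (−2.89), Lsp2 (−1.90), Mal-A3 (−1.65), Jon99Ci (−1.61), Fbp1 (−1.41), Ugt35C1 (−1.30), MtnE (−1.19), Lsp1alpha (−0.91), Obp99b (−0.89), Mal-A2 (−0.88), Lsp1gamma (−0.76), Fbp2 (−0.72), alpha-Est7 (−0.71), Mal-A6 (−0.66), Sr-CI (−0.63), Mal-A1 (−0.62), Ccp84Aa (−0.59), Obp99c (−0.56), Cyp4e3 (−0.49), CG34040 (−0.46), Lsp1beta (−0.45), Mal-A7 (−0.41), Strn-Mlck (−0.40), CG14259 (−0.39), ninaD (−0.27), Ugt37B1 (−0.23), Mal-A8 (−0.20), Act88F (−0.15), Ald1 (−0.15), Jon25Bi (−0.14), CG31205 (−0.13), NimC1 (−0.11), Cyp309a1 (−0.082), MtnD (−0.059), Mal-A4 (−0.051), Pepck1 (−0.030), Obp83ef (−0.024), CG31104 (−0.021) and Hsp23 (−0.015). It was higher for 13 called lower: PolE2 (0.021), Orc2 (0.032), gammaTub23C (0.15), Cp18 (0.18), brat (0.22), Hexim (0.23), BicC (0.26), CG7730 (0.28), cyc (0.32), lncRNA:CR44003 (0.55), CG13609 (0.83), lncRNA:CR43250 (1.32) and dhd (2.75). That baseline changes genotype as well as treatment, and the cause was not tested. With 1 library in each group, depth limits only low genes, and the spread between flies is not known.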
